A study of Mus musculus with 6 samples.

Results

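The genes described here were Dcn, Lum, Dpt, Fn1, Postn, Mfap5, Pdgfra, Scara5, Fap and Pi16, a set of fibroblast markers that holds no collagen gene. They were found by their symbols in the count files, where they make up 10 of 35976 genes, and all 10 of them were among the 18277 genes that passed the filter on low counts. The set was chosen from the difference between treated and vehicle cultures in these same libraries, because it held both rises and falls among the markers of 1 cell type. Every treated-against-vehicle value of these 10 genes below is therefore a description. Where such a gene is said to be called or not called, this places its value against the thresholds used for all genes and is no evidence of an effect.

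The libraries came from primary cultures of dorsal root ganglion (DRG) neurons from C57BL/6 mice of both sexes, aged 2 to 3 months. Lumbar DRGs were dissociated with enzymes, and the cells were plated in medium that held serum, nerve growth factor and glial cell line-derived neurotrophic factor. The paper describes the cultures as highly enriched for neurons. The share of non-neuronal cells that remained in the dish was not measured here. Cultures were then given either vehicle or HC-HA/PTX3 at 15 µg/mL for 24 h, with 3 cultures in each group, numbered 1 to 3 in both. HC-HA/PTX3 is a complex of hyaluronan, a heavy chain of inter-α-trypsin inhibitor and pentraxin 3, purified from human amniotic membrane. RNA depleted of ribosomal RNA was sequenced, and each library held between 37434266 and 54117547 counts, with every treated library smaller than every vehicle library.

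Fibroblasts of the ganglion lie in its capsule and around its vessels and nerve fibres, where they make the extracellular matrix. Their marker genes fall into several roles: proteoglycans and adaptors that set the spacing of collagen fibrils, glycoproteins that cells attach to, parts of the elastic microfibril, and proteins of the cell surface by which the cells receive growth factors, take up cargo or cut peptides. Several of these genes are not exclusive to fibroblasts. Fn1 and Postn, for example, can also be made by glia, vascular cells and other mesenchymal cells, and bulk libraries do not assign RNA to a cell.

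The genes lie on 8 chromosomes of the mm10 build, and Dcn and Lum lie close together. Dcn spans chr10:97479609-97518143 and Lum chr10:97565128-97572703. Fn1 lies at chr1:71585520-71653200 on the minus strand and Dpt at chr1:164796644-164824266. Postn lies at chr3:54361109-54391037, Pdgfra at chr5:75152292-75198215, Mfap5 at chr6:122505845-122529290 and Scara5 at chr14:65666403-65764826. Fap lies at chr2:62500943-62574075 on the minus strand and Pi16 at chr17:29317680-29330593. All 10 are annotated as protein coding. An antisense gene covers 2.5% of the exon bases of Fn1 (Apol7d), 4.55% of those of Pdgfra (Gm42802) and 3.49% of those of Pi16 (AC162182.1). The sources used here do not say whether the counting used strand, so reads of these partners may not have been told apart.

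Of the 10 genes, Postn had the largest and Pdgfra the smallest difference between same-numbered pairs of cultures, as described further on, and the 250 bases before their RefSeq start sites are shown for that contrast. Both are on the plus strand of GRCm38.p6, with Postn at chr3:54360857-54361106, the nearer of its pair of RefSeq windows to the gene start given above, and Pdgfra at chr5:75152001-75152250, and capitals mark a match to a searched motif.
Postn: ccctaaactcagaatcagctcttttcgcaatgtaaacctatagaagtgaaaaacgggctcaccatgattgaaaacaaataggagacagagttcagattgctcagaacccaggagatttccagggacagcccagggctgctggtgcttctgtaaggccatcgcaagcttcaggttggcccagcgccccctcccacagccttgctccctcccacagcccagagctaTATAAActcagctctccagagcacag
Pdgfra: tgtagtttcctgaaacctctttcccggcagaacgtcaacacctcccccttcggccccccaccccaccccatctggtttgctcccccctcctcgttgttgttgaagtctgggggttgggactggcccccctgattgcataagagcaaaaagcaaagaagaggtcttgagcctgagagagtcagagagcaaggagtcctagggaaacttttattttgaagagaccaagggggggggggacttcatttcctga
The motifs searched on both strands were the TATA box TATAAA, the AP-1 motif TGANTCA and the TEAD motif CATTCC, which do not overlap each other here. The Postn window held 1 match, a TATAAA from 26 to 21 bases before the start, and the Pdgfra window held none of the 3. The other RefSeq window of Postn, chr3:54359017-54359266, held 0 matches. Of 32851 mouse promoter windows of the same length, 12.4% held TATAAA, 6.75% TGANTCA and 12.6% CATTCC. A match is a description of letters only.

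The 10 genes covered a wide range of levels. Levels between genes were compared as CPM (a gene's counts scaled to a common library size, here after TMM normalization) per kilobase of exon in the vehicle cultures. Fn1 was highest at 104.6 ± 16.3 CPM per kb (SD, n = 3), followed by Postn at 35.7 ± 30.5, Dcn at 19.8 ± 6.44 and Lum at 9.97 ± 4.51. Then came Pdgfra at 2.58 ± 0.171, Fap at 2.18 ± 0.861, Mfap5 at 0.965 ± 0.408, Dpt at 0.628 ± 0.459, Scara5 at 0.284 ± 0.173 and Pi16 at 0.0930 ± 0.0172. The vehicle cultures of neighbours in this order overlapped, except for Fn1 against Postn and for Lum against Pdgfra. In the treated cultures Scara5 stood at 1.13 ± 0.466 CPM per kb, above Mfap5 at 0.747 ± 0.373 and Dpt at 0.371 ± 0.346.

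The treatment comparison asked how the transcripts of these cultures differed after HC-HA/PTX3. Changes were fitted within same-numbered pairs. A gene was called when its adjusted p was under 0.05 and its log2 fold change beyond 0.5 in either direction. In the gene lists below, a gene that fell or rose is one called lower or higher. Scara5 was called higher, Fn1 and Postn were called lower, and the other 7 were not called. Over all genes tested, 3.32% were called higher and 5.38% lower, and since this contrast chose the genes nothing is read from the count. Fitted log2 fold changes ran from -0.83 for Dpt to 2.10 for Scara5, and 9 of the 10 were below 0. Their median was -0.36, beside -0.01 over all genes tested. Within pairs 1, 2 and 3 the median of the 10 was -0.20, -0.22 and -0.72, and without pair 3 the fitted median was -0.20. In all 3 pairs, 7 genes were lower in the treated culture and 1 was higher. In bulk cultures, fewer cells of a type and less RNA per cell cannot be told apart.

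**Figure D1:**
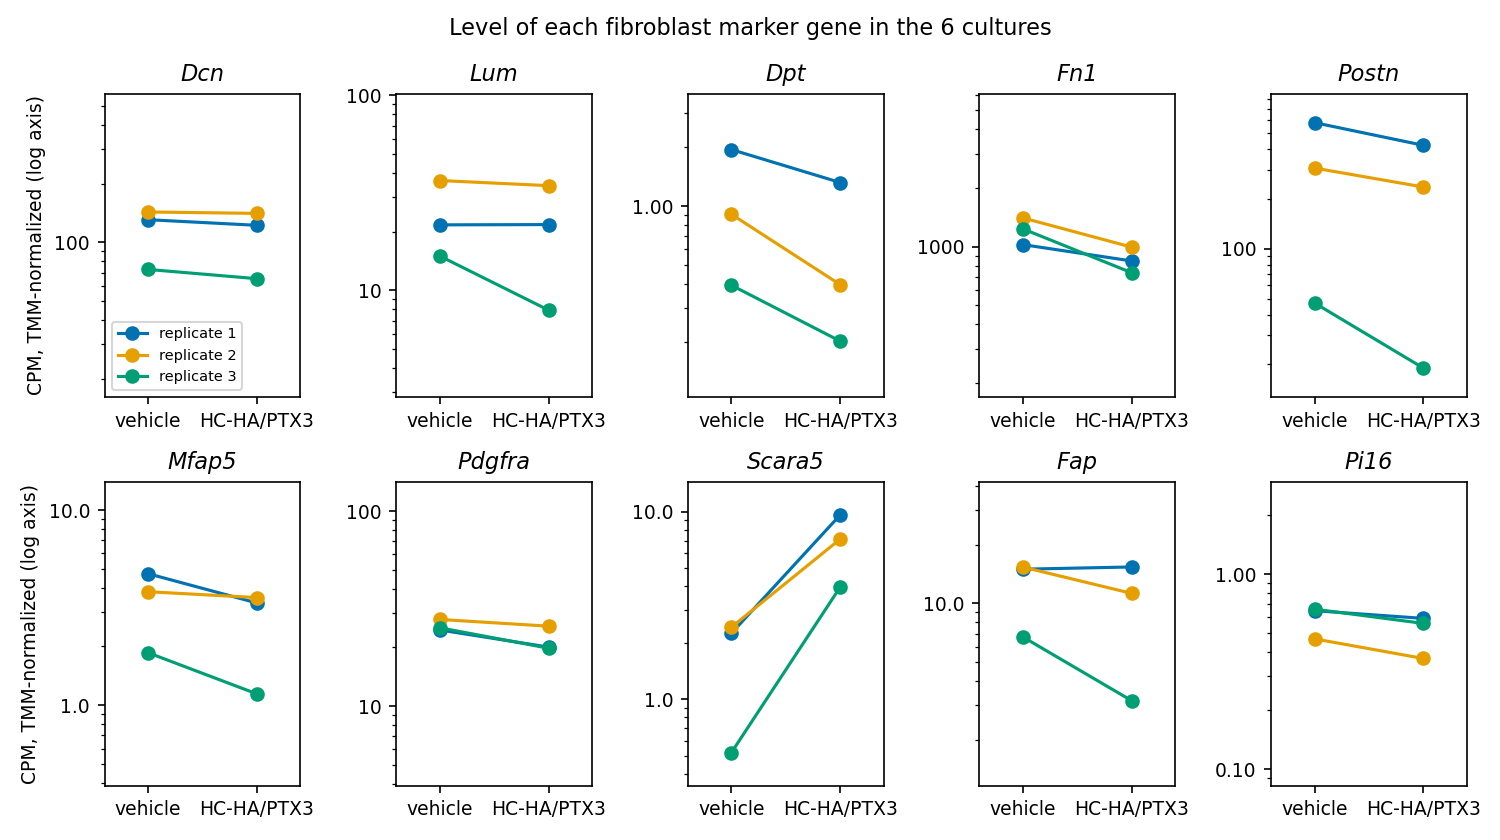
Level of each of the 10 genes in the 6 cultures, in TMM-normalized CPM on a log axis. Each point is 1 culture, and a line joins the vehicle and the HC-HA/PTX3 culture of the same number. Scara5 is the gene in which all 3 lines climb, and the green line of the cultures numbered 3 is the lowest of the 3 in Dcn, Lum, Dpt, Postn, Mfap5, Scara5 and Fap.

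Scara5 encodes a class A scavenger receptor of the cell surface that is known to take up ferritin. It had 2.25, 2.42 and 0.518 CPM in vehicle cultures 1, 2 and 3, and 9.62, 7.15 and 3.96 CPM in treated cultures 1, 2 and 3. All 3 treated cultures lay above all 3 vehicle cultures, as was the case for 9.44% of all genes tested. The counts behind these levels were 90, 104 and 29 in vehicle and 357, 271 and 156 in treated cultures. Mean levels were 1.73 ± 1.05 and 6.91 ± 2.84 CPM (SD, n = 3), and the fitted change was 2.10 on the log2 scale (SE 0.22), or 4.29-fold. The culture pairs 1, 2 and 3 gave 2.10, 1.56 and 2.94. Leaving out 1 pair at a time gave fitted values between 1.84 and 2.42.

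The closest relatives of Scara5 and the iron genes around its cargo were looked at beside it. Of the 3 other class A scavenger receptors tested, 0 were called (edgeR's quasi-likelihood F test, p adjusted by Benjamini-Hochberg, BH), 2 had an unadjusted p under 0.05, and DESeq2 called 0. Colec12 had a log2 change of -0.26 (SE 0.10), Msr1 of -0.34 (SE 0.14) and Scara3 of -0.09 (SE 0.13). Of 13 genes of ferritin and iron handling, 2 were called lower and 0 higher, although the median log2 change was 0.11 and only 3 of the 13 were below 0. The 2 were Cp, the ferroxidase ceruloplasmin, at -0.73 (SE 0.13), and Trf, the iron carrier transferrin, at -0.69 (SE 0.09). The ferritin chains had log2 changes of 0.19 (SE 0.08) for Fth1 and 0.13 (SE 0.09) for Ftl1, and neither was called.

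Fn1 encodes fibronectin, the glycoprotein through which integrins hold cells to the matrix. Its levels were 1025, 1405 and 1235 CPM in vehicle cultures 1, 2 and 3 and 846, 995 and 736 CPM in the treated cultures. All 3 treated cultures lay below all 3 vehicle cultures, which was so for 8.57% of all genes tested. Means were 1222 ± 190 and 859 ± 130 CPM (SD, n = 3), and the fitted log2 change was -0.51 (SE 0.09), or 0.703 of the vehicle level. The pairs gave -0.28, -0.50 and -0.75. This value lay just past the limit of 0.5, and the call was lost with upper-quartile scaling (-0.48), after ComBat-seq and limma (-0.49) and without pair 3 (-0.37).

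Postn encodes periostin, a matricellular protein of connective tissue that is known to rise in wounds and under tension. It had 578, 307 and 47.0 CPM in vehicle cultures 1, 2 and 3 and 422, 236 and 19.0 CPM in treated cultures 1, 2 and 3. The pairs stood far apart and the groups overlapped widely, although within each pair the treated culture was the lower. Mean levels were 311 ± 266 and 226 ± 202 CPM (SD, n = 3), and the fitted log2 change was -0.68 (SE 0.14), or 0.623 of the vehicle level. The pairs gave -0.45, -0.38 and -1.31. The call was lost with DESeq2 (-0.71) and without pair 3 (-0.40).

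The receptors of fibronectin were counted from a list of 8 genes. All 8 had log2 changes below 0, with a median of -0.38, while 1 was called lower and 0 higher. The gene that fell was Itga4, the α4 integrin chain, at -0.63 (SE 0.14, adjusted p = 0.0123, edgeR, quasi-likelihood F test, BH-adjusted). Itgb1, the β1 chain and the highest of the 8 in level, had -0.06 (SE 0.07). Itga4 was not called without pair 1 (-0.61) or without pair 3 (-0.44).

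Dcn and Lum encode decorin and lumican, small leucine-rich proteoglycans that bind collagen fibrils and limit their width. Dcn had 131, 143 and 72.6 CPM in vehicle cultures 1, 2 and 3 and 122, 141 and 65.1 CPM in treated cultures 1, 2 and 3. Each treated culture was close to its partner, and the fitted log2 change of -0.09 (SE 0.06) was the smallest of the 10 in size. Lum had 21.7, 36.6 and 15.0 CPM in vehicle and 21.7, 34.4 and 7.92 CPM in treated cultures. Its pairs 1 and 2 gave log2 changes of 0.00 and -0.09, while pair 3 gave -0.92. The fitted value for Lum was -0.31 (SE 0.15), and neither gene was called.

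Among the 11 other small leucine-rich proteoglycans tested, 2 fell and 1 rose, with a median log2 change of -0.29. Bgn, which encodes biglycan, the closest relative of decorin, had a log2 change of -0.71 (SE 0.15) with an adjusted p of 0.00855, and Prelp of -0.62 (SE 0.17) with an adjusted p of 0.0301, both BH-adjusted from edgeR's quasi-likelihood F test. The gene that rose was Nyx, named after its values were seen, which had at most 1.04 CPM in any culture. For Bgn the vehicle cultures had 495, 505 and 357 CPM and the treated cultures 305, 439 and 152 CPM, so that the treated culture was the lower in every pair. Without pair 3, 0 of the 11 genes were called, and DESeq2 called 1, which was Prelp and not Bgn.

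Dpt and Mfap5 were low in these cultures. Dpt encodes dermatopontin, a small matrix protein that binds decorin. It had 1.95, 0.908 and 0.393 CPM in vehicle cultures and 1.32, 0.396 and 0.203 CPM in treated cultures, from 78, 39, 22, 49, 15 and 8 counts in that order. The treated culture was the lower in each pair, at -0.56, -1.20 and -0.95, and the fitted log2 change of -0.83 (SE 0.28) was not called. It was called when every gene with at least 1 count was kept (-0.84) and after ComBat-seq and limma (-0.82). Mfap5 encodes a glycoprotein of the microfibrils on which elastic fibres form. Its levels were 4.72, 3.82 and 1.86 CPM in vehicle and 3.34, 3.56 and 1.14 CPM in treated cultures, and the fitted log2 change was -0.41 (SE 0.18), not called.

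Of 18 other genes of elastic fibres and microfibrils, 7 fell and 0 rose, with a median log2 change of -0.47. Without pair 3, 2 of them fell and the median was -0.15, and DESeq2 called 5. Fbln1, which encodes fibulin 1, fell by 0.87 on the log2 scale (SE 0.22), the crosslinking enzyme gene Lox by 0.77 (SE 0.17), the fibrillin gene Fbn2 by 0.75 (SE 0.15) and the fibulin gene Efemp1 by 0.74 (SE 0.17). All 3 treated cultures lay below all 3 vehicle cultures in Lox but not in the other 3 of these genes. Lox was not called by DESeq2 or without pair 3 (-0.43). Efemp1 was not called without pair 1 or pair 3, Fbln1 without pair 1 or pair 2, and Fbn2 without pair 1.

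Pdgfra and Fap encode proteins of the cell surface. Pdgfra, the α receptor for platelet-derived growth factors, had 24.6, 27.8 and 25.2 CPM in vehicle cultures and 20.1, 25.7 and 19.8 CPM in treated cultures. The level was nearly even across the vehicle cultures, at 25.9 ± 1.72 CPM (SD, n = 3), and the treated culture was the lower in each pair, at -0.29, -0.11 and -0.35. The fitted log2 change of -0.25 (SE 0.09) was not called. Among the 4 platelet-derived growth factor genes and the sister receptor gene Pdgfrb, 1 fell and 0 rose. Their median was -0.30 (-0.10 without pair 3). The gene that fell was Pdgfc, with a log2 change of -0.78 (SE 0.14, adjusted p = 0.00437, edgeR, quasi-likelihood F test, BH-adjusted). Its vehicle cultures had 7.42, 9.78 and 7.23 CPM and its treated cultures 5.17, 5.46 and 3.66 CPM, with no overlap.

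Fap encodes fibroblast activation protein, a serine protease that cuts after proline. It had 15.0, 15.4 and 6.73 CPM in vehicle cultures and 15.4, 11.3 and 3.17 CPM in treated cultures. The pairs did not go 1 way, with log2 changes of 0.04, -0.45 and -1.08. The fitted value of -0.45 (SE 0.18) was not called, but without pair 1 it was called at -0.73. Of 7 related prolyl peptidases, 1 rose and 0 fell, with a median log2 change of -0.04. The call is at the fold limit and was lost with DESeq2 and without pair 1 (0.42). It was also lost after ComBat-seq and limma (0.49) and when every gene with at least 1 count was kept (0.48). The gene was Dpp7, a lysosomal dipeptidase gene, at 0.50 (SE 0.11, adjusted p = 0.0127, edgeR, quasi-likelihood F test, BH-adjusted). The closest relative of Fap, Dpp4, was under 1 CPM in every culture and was not called.

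Pi16 encodes a member of the CAP family of secreted and anchored proteins and marks fibroblasts of the adventitia, the outer coat of vessels. It was the lowest of the 10 genes, with 0.649, 0.466 and 0.661 CPM in vehicle and 0.593, 0.369 and 0.559 CPM in treated cultures, from between 14 and 37 counts. The groups overlapped, and the fitted log2 change of -0.23 (SE 0.30) was not called. Of 5 other CAP family genes tested, 0 were called by edgeR's quasi-likelihood test, 1 had an unadjusted p under 0.05, and DESeq2 called 0. Their median log2 change was 0.004, and 2 of the 5 were below 0. These 2 were also the highest in level, Glipr2 at -0.19 (SE 0.09) and Crispld1 at -0.33 (SE 0.16).

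**Figure D2:**
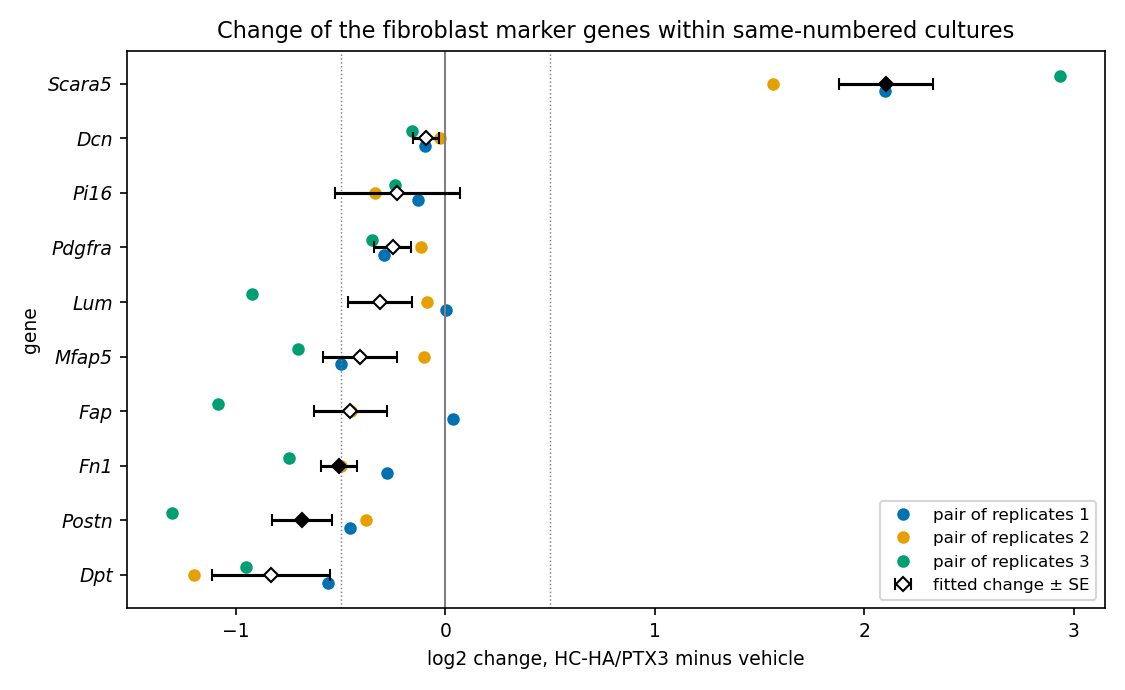
Log2 change of each of the 10 genes, HC-HA/PTX3 minus vehicle. Coloured points are the 3 same-numbered pairs of cultures, diamonds the fitted change with its SE (filled where called), and dotted lines the limits of 0.5 in each direction. Scara5 stands alone on the right at 2.10, and in Lum, Fap and Postn the point of pair 3 lies well to the left of the other 2.

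The fit without the replicate number as a block used the same 6 libraries and called 0 of the 10 genes. It called 0% of all genes tested, although 2089 of 18277 had an unadjusted p under 0.05, against 6068 with the block. Among the 10 genes, Fn1 and Scara5 were the 2 with an unadjusted p under 0.05 in that fit. Their log2 changes were -0.51 and 2.01, while that of Postn was -0.46.

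Levels relative to Dcn, whose treated cultures were close to their vehicle partners, showed the genes against each other within a culture. Scara5 stood at 1.72, 1.69 and 0.713 CPM per 100 CPM of Dcn in vehicle cultures 1, 2 and 3 and at 7.87, 5.08 and 6.09 in treated cultures. The treated cultures thus lay within a narrower band relative to Dcn than in CPM alone. Postn stood at 443, 215 and 64.7 in vehicle and 345, 168 and 29.2 in treated cultures, and the spread between numbers remained wide. Fn1 stood at 785, 982 and 1701 in vehicle and 692, 708 and 1131 in treated cultures, with the cultures numbered 3 the highest of their group. Pdgfra was likewise highest relative to Dcn in the cultures numbered 3, at 34.7 in vehicle and 30.4 in treated. The other 4 cultures held 16.4 to 19.4. Dcn itself was lowest in the cultures numbered 3, at 72.6 CPM in vehicle and 65.1 CPM in treated, which raises every ratio there. In CPM, neither Fn1 nor Pdgfra was highest in the cultures numbered 3.

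**Figure D3:**
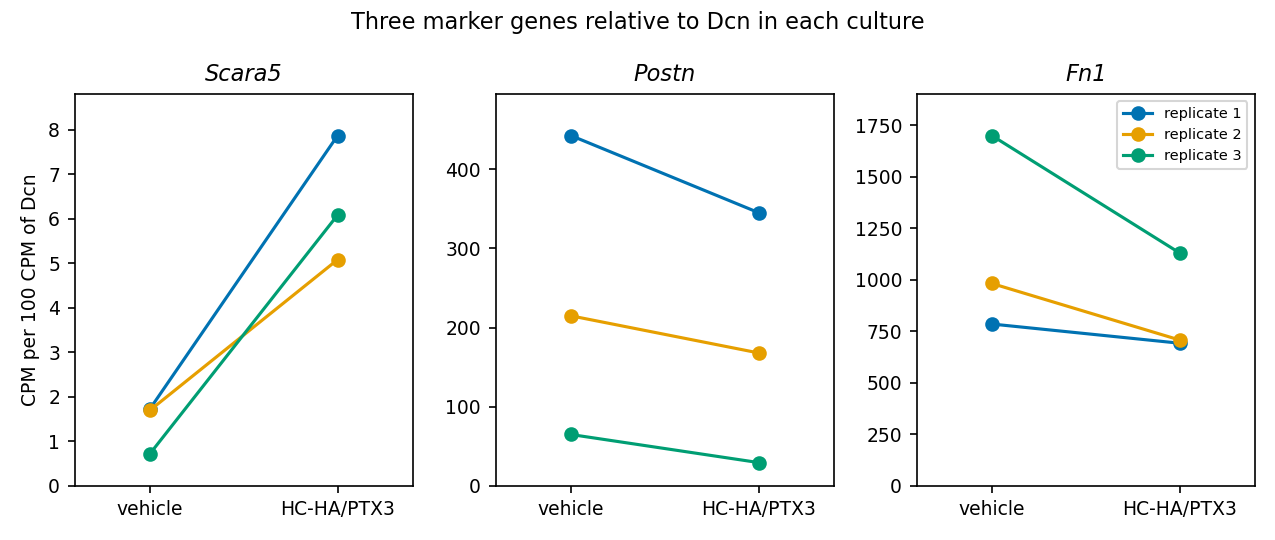
CPM of Scara5, Postn and Fn1 per 100 CPM of Dcn in the same culture, on linear axes that start at 0, with a line joining each same-numbered pair. Scara5 climbs in all 3 pairs, from at most 1.72 to at least 5.08. Postn keeps the same order of the cultures in both groups, and Fn1 is highest in the cultures numbered 3, where Dcn is lowest.

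The difference between same-numbered pairs was not used to choose the genes, and it was tested as an F test of the replicate number in the same fit (edgeR's quasi-likelihood test, Benjamini-Hochberg adjustment over 18277 genes). A gene was called when the adjusted p was under 0.05 and the largest log2 difference between any 2 numbers was over 0.5. Of the 10 genes, 7 were called, where 23.2% of all genes tested were. In all 7 the cultures numbered 3 were the lowest. The labels do not say what the number marks. With 1 vehicle and 1 treated culture per number, the p-values measure only the spread left between these 6 libraries. For a single gene that spread has 2 degrees of freedom, and the fit also borrows from the spread of the other genes tested.

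Postn differed most, with the pair numbered 3 lower than the pair numbered 1 by 4.0 on the log2 scale, or 16-fold (adjusted p = 9.52e-07, edgeR). Dpt was next at 2.46, or 5.52-fold (adjusted p = 0.000992, edgeR). Fap followed at 1.67 (adjusted p = 0.000603) and Lum at 1.66 (adjusted p = 0.000299), the latter between the pairs numbered 2 and 3 (both edgeR). For Scara5 the difference was 1.54 (adjusted p = 0.0036), for Mfap5 1.42 (adjusted p = 0.00154) and for Dcn 1.04 (adjusted p = 1.09e-05), again by edgeR. The other 3 genes did not share this pattern: Fn1 differed by 0.34 (adjusted p = 0.0463, under the fold limit), Pdgfra by 0.27 (adjusted p = 0.112) and Pi16 by 0.57 (adjusted p = 0.388) in the same edgeR fit. For Pi16 the counts were low. Of the 7 calls, 3 were made without the pair numbered 3, in Postn, Lum and Dpt, at 0.86, 0.72 and 1.34 between the pairs numbered 1 and 2. Without the pair numbered 1, Dpt was the call lost, at 1.09 between the other pairs (adjusted p = 0.0770, edgeR).

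**Figure D4:**
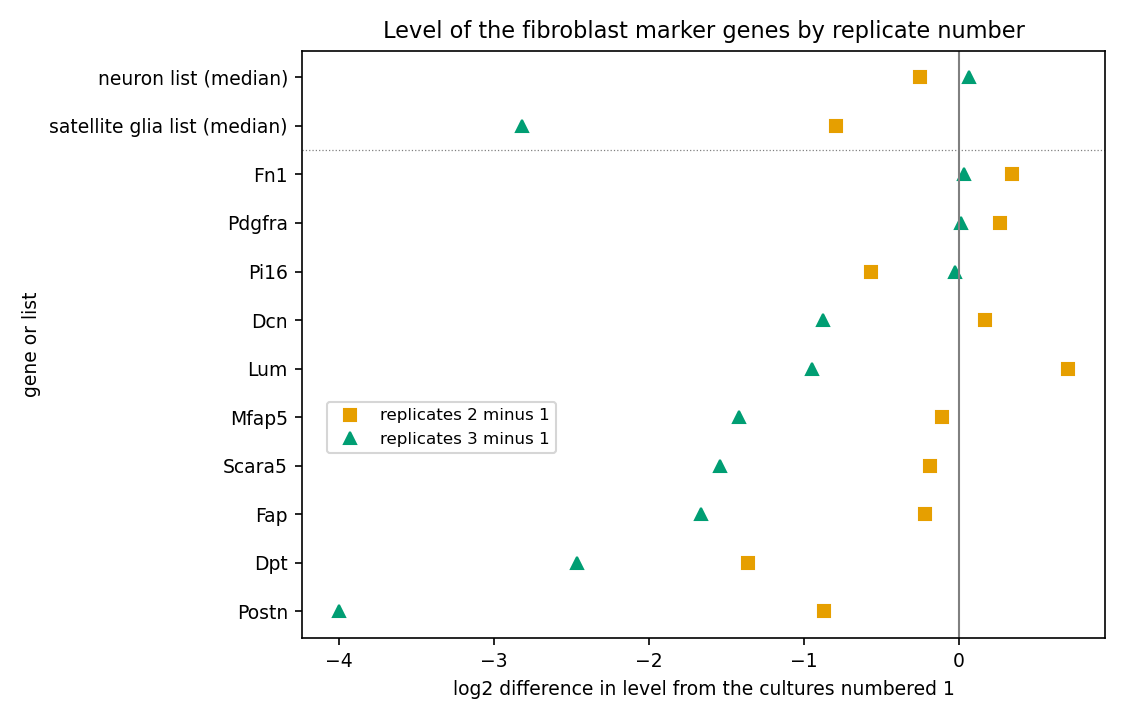
Log2 difference in level of the cultures numbered 2 (squares) and 3 (triangles) from those numbered 1, treatment accounted for, for each of the 10 genes and, above the dotted line, as the median of the satellite glia and neuron lists. Triangles lie at -0.88 or below for 7 genes and close to 0 for Fn1, Pdgfra and Pi16, while the satellite glia median lies at -2.82.

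Markers of other cell types moved with the number as well. The 9 satellite glia markers, genes of the cells that wrap the neuronal cell body, summed to 2025, 1141 and 606 CPM in vehicle cultures 1, 2 and 3 and to 1885, 1173 and 634 CPM in the treated cultures. Of these 9 genes 8 were called for the number, none of the 9 was at 0, and the median difference of number 3 from number 1 was -2.82. The median of the 10 fibroblast genes was -1.19 and that of all genes tested -0.01. The same median was -1.41 for the fibroblast collagens and -0.63 for the other fibroblast genes counted below. It was -0.41 for the adventitial and progenitor genes and -0.08 for the activated fibroblast genes. Of the other lists counted below, Schwann cell myelin genes had -1.70, cell cycle genes -1.43 and mural genes -0.59. Perineurial, macrophage and endothelial genes had -0.27, -0.20 and 0.17. The 10 neuron markers summed to 8656, 6491 and 7619 CPM in vehicle and 8743, 6890 and 8560 CPM in treated cultures. Of these 10 genes 6 were called for the number, in mixed directions, and the median difference of number 3 from number 1 was 0.07. The part that cell makeup played in the differences between numbers was not tested.

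Further fibroblast genes were counted from lists that hold none of the 10. The 8 fibroblast collagens summed to 3724, 3736 and 1781 CPM in vehicle cultures and 2495, 2791 and 841 CPM in treated cultures, and 4 of 8 fell while 0 rose, with a median log2 change of -0.51. Col1a1, a chain of collagen I, fell by 1.62 on the log2 scale (SE 0.17), Col1a2 by 1.11 (SE 0.18), Col3a1 by 0.96 (SE 0.17) and Col5a1 by 0.58 (SE 0.15). The collagen median was -0.28 without pair 3, and Col5a1 was not called there (-0.27) or by DESeq2, which called 3 of the 8. Of 27 other fibroblast genes tested, 7 fell and 1 rose, with a median of -0.31. Sfrp1, a secreted Wnt inhibitor gene, fell by 0.92 (SE 0.07), S100a4 by 0.77 (SE 0.15), Twist1, a transcription factor gene of mesenchyme, by 0.77 (SE 0.16) and Tbx18 by 0.73 (SE 0.18). Tbx18 was not called without pair 2 or pair 3, S100a4 without pair 3, and Twist1 without pair 1. The gene that rose was Mmp2, a gelatinase gene named after its values were seen, at 0.51 (SE 0.12). It was not called without pair 1 (0.34), without pair 2 (0.50) or when every gene with at least 1 count was kept (0.49). Without pair 3 the median of these 27 genes was -0.15, with 3 lower and 2 higher calls.

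The adventitial and progenitor list, to which Pi16 is close in use, held 16 genes, of which 5 fell and 2 rose, with a median log2 change of -0.30. Procr, the endothelial protein C receptor gene, rose by 1.46 (SE 0.13, adjusted p = 0.000308, edgeR, quasi-likelihood F test, BH-adjusted). It had 9.16, 11.1 and 11.4 CPM in vehicle and 28.7, 22.7 and 36.8 CPM in treated cultures, so that the groups did not overlap, as in Scara5. The other gene that rose was Cd55, a complement regulator gene named after its values were seen, at 0.53 (SE 0.11), with overlapping groups. Cd248, the endosialin gene of stromal cells, fell by 1.14 (SE 0.16), Anxa3 by 0.86 (SE 0.15) and Fbn1, the fibrillin 1 gene, by 0.70 (SE 0.15). Without pair 3 there were 2 lower calls and 1 higher in this list and a median of -0.18, and Fbn1 (-0.39) and Cd55 (0.36) were among those lost. DESeq2 called 3 lower and 2 higher, and Fbn1 was not among them.

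Of 23 genes of activated, contractile fibroblasts, 15 fell and 0 rose, with a median of -0.76, the lowest of the fibroblast lists. DESeq2 called 9 of these genes lower, and without pair 3 there were 10 such calls and a median of -0.48. Actg2, an actin gene of smooth muscle, fell by 1.37 (SE 0.32), the myosin light chain gene Myl9 by 1.26 (SE 0.22) and Acta2, the smooth muscle α-actin gene, by 1.03 (SE 0.21). Of these, Acta2 was not called by DESeq2. Some of these genes also mark mural cells of vessels, of whose own list of 7 genes 1 rose, Abcc9 at 0.57 (SE 0.13), and 0 fell. Abcc9 was not called without pair 1 (0.52) or pair 3 (0.42). The 10 cell cycle genes summed to 808, 586 and 280 CPM in vehicle and 278, 297 and 52.6 CPM in treated cultures, and all 10 fell, with a median of -1.43. The largest falls among them were those of Ccna2 at -1.75 (SE 0.25), Mki67 at -1.72 (SE 0.22), Top2a at -1.68 (SE 0.21) and Rrm2 at -1.55 (SE 0.20). The part that this fall played in the values of the 10 fibroblast genes was not tested. Without the pair numbered 3, the calls over all these lists went from 62 to 37, and without the block to 0.

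Markers of the other cells that a ganglion culture can hold were counted in the same treatment comparison. By edgeR's quasi-likelihood test 0 of 10 neuron, 0 of 9 satellite glia, 0 of 7 endothelial and 0 of 5 perineurial markers were called. Unadjusted p was under 0.05 for 4, 6, 0 and 2 of these, in that order, and DESeq2 called 0 in each list. The neuron median was 0.03 on the log2 scale, with Nefl at 0.04 (SE 0.07) and Tubb3 at 0.17 (SE 0.06) the highest in level. The satellite glia median was -0.15, with Apoe at -0.21 (SE 0.08) and Glul at 0.28 (SE 0.07) the highest in level. For endothelial markers the median was 0.02, with Cdh5 at -0.08 (SE 0.07) and Kdr at 0.18 (SE 0.09), and for perineurial markers it was -0.05, with Slc2a1 at 0.19 (SE 0.08) and Itgb4 at 0.18 (SE 0.10). Of 8 Schwann cell myelin genes 2 fell, with a median of -0.30, where 5.38% of all genes tested were called lower. Cldn19, 1 of the 2, had -0.67 (SE 0.19) and was not called by DESeq2 or with any 1 pair left out. Of 10 macrophage genes 2 fell, C1qb at -0.82 (SE 0.19) and C1qa at -0.74 (SE 0.20), and 0 rose in either list. Without pair 3, 0 genes of both lists were called, and the macrophage median of -0.44 became -0.16. Without pair 1 the Schwann cell list held 1 call and the macrophage list 0, and DESeq2 called 1 and 2. Summed macrophage markers were low, between 43.5 and 80.4 CPM over the 6 cultures.

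**Figure D5:**
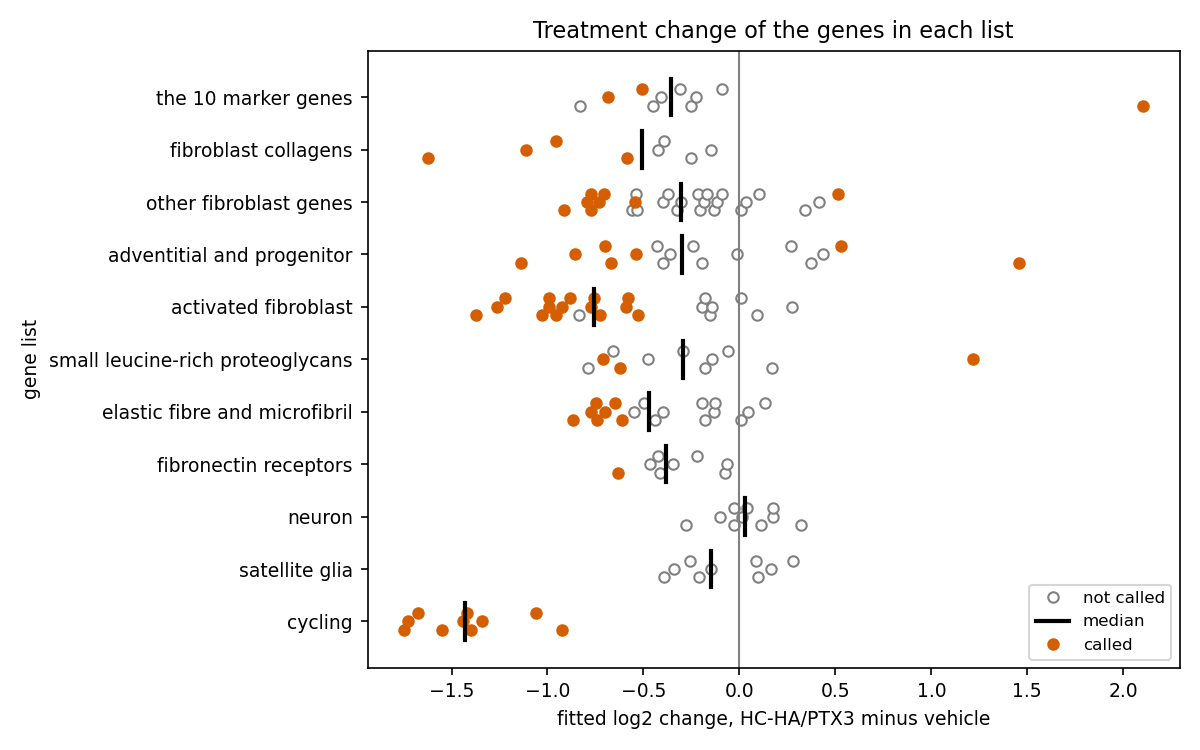
Fitted log2 change, HC-HA/PTX3 minus vehicle, of each gene in 11 of the lists (filled points called, open points not called, vertical bars the median of the list). The 10 marker genes have 1 point far to the right, Scara5, the activated fibroblast and cell cycle lists lie mainly to the left of 0, and the neuron list is spread around 0.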

How the data were processed

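Total RNA of 6 DRG cultures was depleted of ribosomal RNA and sequenced as paired ends. The deposited values are raw counts per gene, 1 table per culture, which the authors made against mm10. The methods name HISAT2 and featureCounts, while the headers of the tables name STAR, so the aligner behind the counts is uncertain, and a strand setting is not given in the sources used here.

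Counts were fitted with edgeR 4.0.16 (R 4.3.3): genes were kept by filterByExpr with treatment as the group, libraries were scaled by TMM, and glmQLFit was fitted with terms for replicate number and treatment, with Benjamini-Hochberg adjustment over 18277 genes. Calls needed an adjusted p under 0.05 and a log2 fold change over 0.5 in size, thresholds taken from the methods. The replicate number was an F test in the same fit. CPM are TMM-scaled, and changes within pairs are log2 ratios of those CPM. A CPM unit stood for 37.1 to 56.0 counts, and 3 counts for at most 0.0808 CPM, which covers counting error only. The labels give no separate source for each culture, so p-values measure the spread between these libraries. The numbers were taken as pairing the cultures because, over all genes tested, deviations from the group means correlated at 0.631, 0.536 and 0.774 in same-numbered pairs, all above 0.1, and at -0.613 to 0.148 in others. No pair of libraries of a group was a duplicate: chi-square per degree of freedom was 34.5 to 119.

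The 10 genes, the lists and the rule for genes were chosen with earlier results of these data known. From each list at most 4 genes were named, those called whose mean log2 CPM reached 1, in order of size of change, or the 2 of highest level where none was called, and close relatives of a member. Values of 2 genes that this rule would name are not reported here. Some genes are in more than 1 list. Positions came from GENCODE M21 (mm10) for 10 of 10 genes and 220 of 222 listed genes, and promoter sequences from RefSeq (GRCm38.p6), which matched 4 of the 10. DESeq2 1.42.0, limma 3.58.1, ComBat-seq of sva 3.50.0, upper-quartile scaling, other filters, no fold limit, no replicate block and leaving out each pair were the alternatives. The script was tested on simulated data.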

Additional observations from a re-analysis of the deposited data

How the results depend on the processing

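The fit without the replicate block called 0 of the 10 genes (0 higher, 0 lower), 0 genes in all and 0 genes of the other lists, against 3, 1591 and 62 with the block. Leaving out a pair of cultures gave 1 to 4 of the 10 genes called, 1 higher each time and 0 to 3 lower, with Scara5 the only one called without pair 3. Over all genes it gave 878 to 1571 calls, 248 to 582 higher and 630 to 989 lower, and 37 to 62 calls in the other lists. For the replicate number it gave 3 to 7 of the 10 genes and 1243 to 3201 of all genes, against 7 and 4244. Called lower among the 10 genes was 1 in place of 2 with upper-quartile scaling and 1 with DESeq2. Over all genes, 607 higher calls became 373 with DESeq2 and 1012 after ComBat-seq and limma, beside 984 lower calls that became 853 and 1115. Without a fold limit there were 3505 calls, 1402 higher and 2103 lower. Removing the fold limit can only add calls, and the cause of the other changes was not tested. In the treatment comparison 88 values of single members under an alternative kept their direction and side of the threshold, 8 lost the call and 3 gained it; for the replicate number the counts were 73, 5 and 1. Of 180 list medians under an alternative 171 moved by less than the spread between pairs, but that spread is wide, and without pair 3 several fibroblast list medians moved by over 1.5 times, as given with those lists. No called value of the 10 genes changed sign. Dpt and Pi16 rest on 8 to 78 counts per library.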
